A study of Caenorhabditis elegans with 2 samples.

Results

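The 372 peaks described here are sites of LIN-13 binding inside introns of protein-coding genes of Caenorhabditis elegans. They lay outside the promoter windows of outermost gene starts, in sequence with under 50% of bases masked as repeats. They are 12.3% of the 3013 nuclear peaks in a thresholded list of 3040 entries, of which 27 were mitochondrial. A summit, the position of highest signal in a peak, qualified when it lay outside the promoter window of every protein-coding gene (1000 bp upstream to 200 bp downstream of the outermost start), outside every protein-coding exon and inside an intron. It also had to lie over 500 bp from any tRNA, snoRNA or snRNA gene and in sequence with under 50% soft-masked (repeat) bases in the window from 100 bp before to 100 bp after it. Of 532 intronic summits, 106 were left out for a nearby RNA gene and 54 for masking. Exons of other gene types were allowed, and 30 of the 372 summits lay in one. Leaving these out gave 342 peaks. Within the thresholded list the rule used location, annotation and masking. The list itself was made by the authors from both replicates, and masking depends on sequence, so replicate overlap and sequence content are not fully independent of the choice.

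The material was whole L2 larvae of strain OP49, mixed in sex, in 1 group of 2 biological replicates. The labels give the genotype as the unc119(ed3) mutation with the transgene wgIs49, which holds lin-13 fused to TY1, EGFP and FLAG tags together with unc119. Chromatin immunoprecipitation with sequencing (ChIP-seq) was directed at the EGFP-tagged protein, and the labels list the antibody by the name lin-13. The state of the endogenous lin-13 gene is not given, 1 transgenic strain was used, and no untagged or mutant group is in the design. Whole larvae mix all tissues, so a peak bound in few cells cannot be told apart from one bound weakly in many. Since there is 1 group, every value below is a description, and no difference between sets of peaks was tested. Intervals in parentheses are 95% Wilson intervals on shares, or order-statistic intervals on medians. They cover counting error over peaks or genes, which are not replicates. Neighbouring peaks can share sequence and reads.

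LIN-13 is a nuclear protein with many zinc fingers and belongs to the class B synthetic multivulva (synMuv B) proteins, which restrain vulval fate and keep germline genes silent in somatic cells. It is known to act with the heterochromatin protein HPL-2 and with LIN-61. Introns of C. elegans genes can hold enhancers, promoters of shorter transcripts and whole non-coding genes. The first introns of long genes often hold such elements.

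The genome sequence at the strongest of these peaks shows what the summits contain. The 4 strongest are shown with 100 bp on either side of the summit, read from the WBcel235 reference (ce11). Capitals mark GAGAGA or its reverse complement TCTCTC, and the 8-base word CTGCGTCT or its reverse complement AGACGCAG, which are counted below. The pair of words can share up to 3 bases.
Y41G9A.17 (chrX:2996983-2997183, plus strand): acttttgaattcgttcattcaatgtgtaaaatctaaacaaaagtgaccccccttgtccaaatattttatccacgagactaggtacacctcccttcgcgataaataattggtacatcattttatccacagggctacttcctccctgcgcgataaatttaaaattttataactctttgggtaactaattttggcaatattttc
mom-1 (chrX:6296445-6296645, plus strand): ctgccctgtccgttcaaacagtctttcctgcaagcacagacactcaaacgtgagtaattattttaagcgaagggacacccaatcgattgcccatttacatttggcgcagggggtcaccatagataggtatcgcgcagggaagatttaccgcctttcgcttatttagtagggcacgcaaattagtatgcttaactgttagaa
Y111B2A.12 (chrIII:12612581-12612781, plus strand): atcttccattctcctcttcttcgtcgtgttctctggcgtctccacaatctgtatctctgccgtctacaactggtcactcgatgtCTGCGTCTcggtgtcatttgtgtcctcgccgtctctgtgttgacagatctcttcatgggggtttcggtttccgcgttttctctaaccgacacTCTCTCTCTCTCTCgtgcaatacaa
scc-2 (chrII:255264-255464, plus strand): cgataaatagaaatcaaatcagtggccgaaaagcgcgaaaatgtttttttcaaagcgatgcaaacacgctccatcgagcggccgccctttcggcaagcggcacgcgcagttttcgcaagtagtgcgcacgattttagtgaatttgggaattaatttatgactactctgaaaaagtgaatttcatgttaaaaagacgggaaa
The Y41G9A.17, mom-1 and scc-2 windows held neither word, while Y111B2A.12 held 5 matches to the first, counted with overlaps within a single TC run, and 1 to the second.

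Another 4 peaks, at ranks from 276 to 434, are shown with 60 bp on either side of the summit because both words lay in that window. They were picked after the word counts were seen, to show how the words are placed. They lay in epg-9 (a subunit of the autophagy initiation complex), mdt-26 (a Mediator subunit), Y43F8B.2 and larp-1 (an RNA-binding protein of the La-related family).
epg-9 (chrIV:2602095-2602215, plus strand): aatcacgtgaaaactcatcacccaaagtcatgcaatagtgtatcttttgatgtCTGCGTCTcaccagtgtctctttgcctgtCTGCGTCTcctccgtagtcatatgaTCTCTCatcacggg
mdt-26 (chrII:5661839-5661959, plus strand): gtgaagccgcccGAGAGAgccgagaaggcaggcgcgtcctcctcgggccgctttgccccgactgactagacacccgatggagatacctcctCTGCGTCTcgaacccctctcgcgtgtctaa
Y43F8B.2 (chrV:19522856-19522976, plus strand): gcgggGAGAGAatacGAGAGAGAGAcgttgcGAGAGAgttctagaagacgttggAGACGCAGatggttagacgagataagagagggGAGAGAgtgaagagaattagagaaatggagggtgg
larp-1 (chrIII:5014056-5014176, plus strand): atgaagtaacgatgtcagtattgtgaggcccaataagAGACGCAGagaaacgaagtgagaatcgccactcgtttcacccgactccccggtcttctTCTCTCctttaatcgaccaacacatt
The epg-9 window carried CTGCGTCT in 2 copies, and the Y43F8B.2 window carried 6 matches to GAGAGA, counted with overlaps, around a single AGACGCAG.

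GA repeats were common at the intronic summits. GAGAGA, on either strand, was found within 100 bp of 212 of 372 summits, or 57.0% (51.9 to 61.9), against 40.8% of all nuclear peaks. It was found at 33.5% (31.3 to 35.7) of 1727 promoter peaks and at 60.9% (56.6 to 65.0) of 516 intergenic unmasked peaks, so the intronic share lay near the intergenic one and above the promoter one. In windows centred 500 bp on either side of the same summits the share was 13.6% (11.3 to 16.2). Entries of the pooled list that passed the same location rule but overlapped no thresholded peak, 5521 in all, had it at 19.6% (18.6 to 20.7), and 11.4% of 86028 adjoining windows of the same length in eligible intron had it.

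The profile of matches was narrow. In bins of 50 bp, GAGAGA was matched at 23.9% of the intronic peaks in the bin at the summit, 16.1% in the bins 100 bp to either side, and 3.49% and 3.76% in the bins 500 bp away. Long runs were also found at the summit. A pure GA or TC run of at least 10 bp lay in 60 summit windows (16.1%) and in 13 of 744 flanking windows (1.75%). The longest, 68 bp, lay in aakg-1 (chrIII:12549687-12550036), which encodes a regulatory subunit of AMP-activated kinase. That peak was also the one nearest to the masking limit, with 49.8% masked bases.

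**Figure D1:**
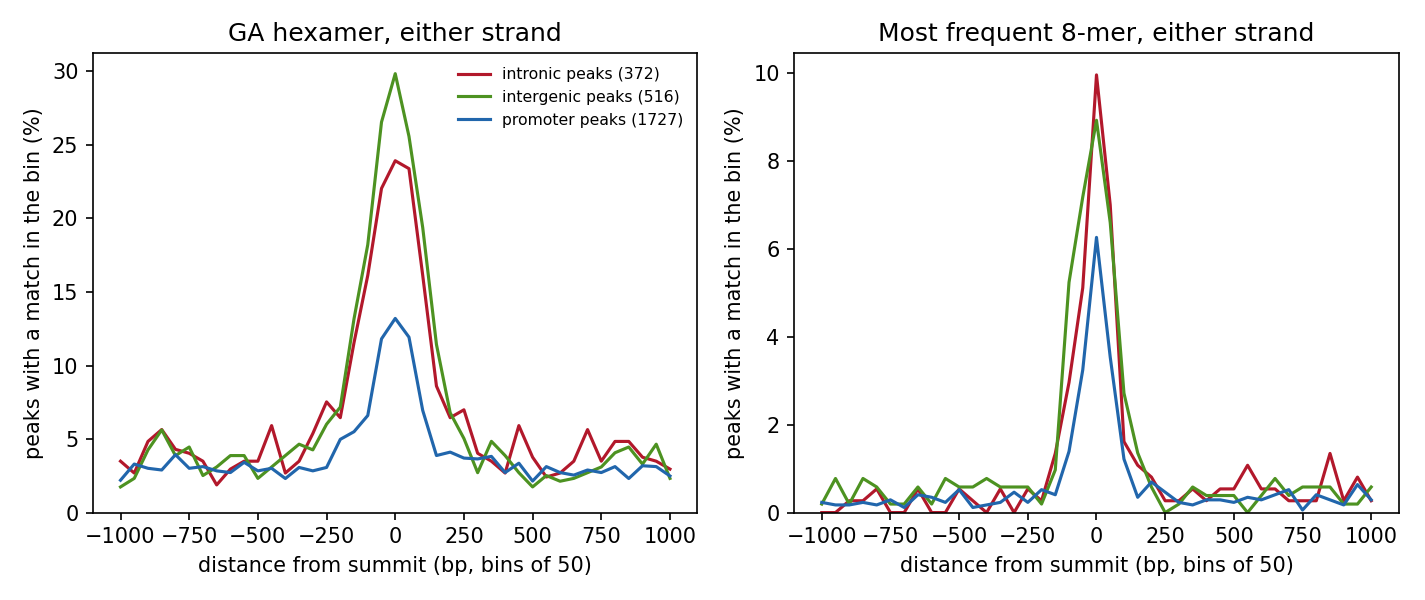
Share of peaks with a match (y axis, %) by distance from the summit (x axis, bp, bins of 50). The words are the GA hexamer (left) and CTGCGTCT (right, titled the most frequent 8-mer), in 372 intronic, 516 intergenic and 1727 promoter peaks. In all 3 sets the share is highest at the summit and returns to a low level within about 250 bp; the intronic curve reaches 23.9% for the hexamer and 9.95% for the 8-mer.

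When 8-base words were ordered by their excess at the intronic summits over flanking windows, CTGCGTCT came first. It was also the most frequent of the 12 leading words. This word was picked for that excess, so its contrast with the flanks was built into the choice. Its share is a description of these windows. The word was present at 85 summits, or 22.8% (18.9 to 27.4), against 15.3% of all nuclear peaks. Promoter peaks had it at 13.3% and intergenic peaks at 22.9%. The windows 500 bp away had it at 1.61%, intronic entries outside peaks at 2.95%, and all eligible intron windows at 1.14%. Of the 85 peaks with it, 69 (81.2%, 71.6 to 88.1) also had GAGAGA, compared with 49.8% (44.1 to 55.6) of the 287 peaks without it. Median GC was 48.3% in the former and 44.3% in the latter, and median pooled rank was 1345 and 2049. The part of GC and rank in this contrast was not tested. In all, 228 peaks held at least 1 of the pair and 144 held neither.

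The split of both words between the strands of the host gene was also counted. Of 369 peaks whose host genes lay on a single strand, 106 had only TCTCTC on the coding strand, 57 had only GAGAGA and 48 had both. The flanking windows split almost evenly, with 46, 48 and 7 of 738. For the 8-base word, 51 peaks had CTGCGTCT on the coding strand, 27 had AGACGCAG and 6 had both. The few flanking windows with it were also uneven, at 9, 3 and 0 of 738.

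CACGTG, the palindromic E-box bound by several helix-loop-helix proteins such as those of the MYC and HLH-30 (TFEB) type, was present at 38 summits, or 10.2% (7.53 to 13.7), against 6.27% of all nuclear peaks. Its share was 5.10% at promoter peaks, 9.30% at intergenic peaks, 3.09% in the flanking windows and 3.09% over all eligible intron windows. The other 10 words searched, on both strands, gave smaller or opposite differences. TTNGAA, which matches the core of the cell-cycle CHR element, was present at 45.7% of the intronic peaks against 57.1% of all nuclear peaks and 69.1% of the flanks. The GATA-factor core GATAA was at 27.7% against 31.7% of all nuclear peaks and 36.4% of the flanks, and the homeodomain core TAATTA at 4.30% against 5.51% and 8.60%. The forkhead core TGTTTNC was at 19.4% against 26.3% and 15.3%.

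The remaining 6 words are given beside all nuclear peaks only. AGGTCA, a nuclear receptor site, was at 5.91% of the intronic peaks against 5.01%, and the AP-1 site TGANTCA at 4.84% against 4.58%. CAGCTG, a second E-box, was at 5.11% against 5.11%, and CCGCCC at 9.41% against 8.83%. Among AT-rich words, TATAAA was at 11.6% against 14.9%, and TTTTTTTT at 10.8% against 14%. A match is a run of letters in a window, and no factor was measured at it other than LIN-13.

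**Figure D2:**
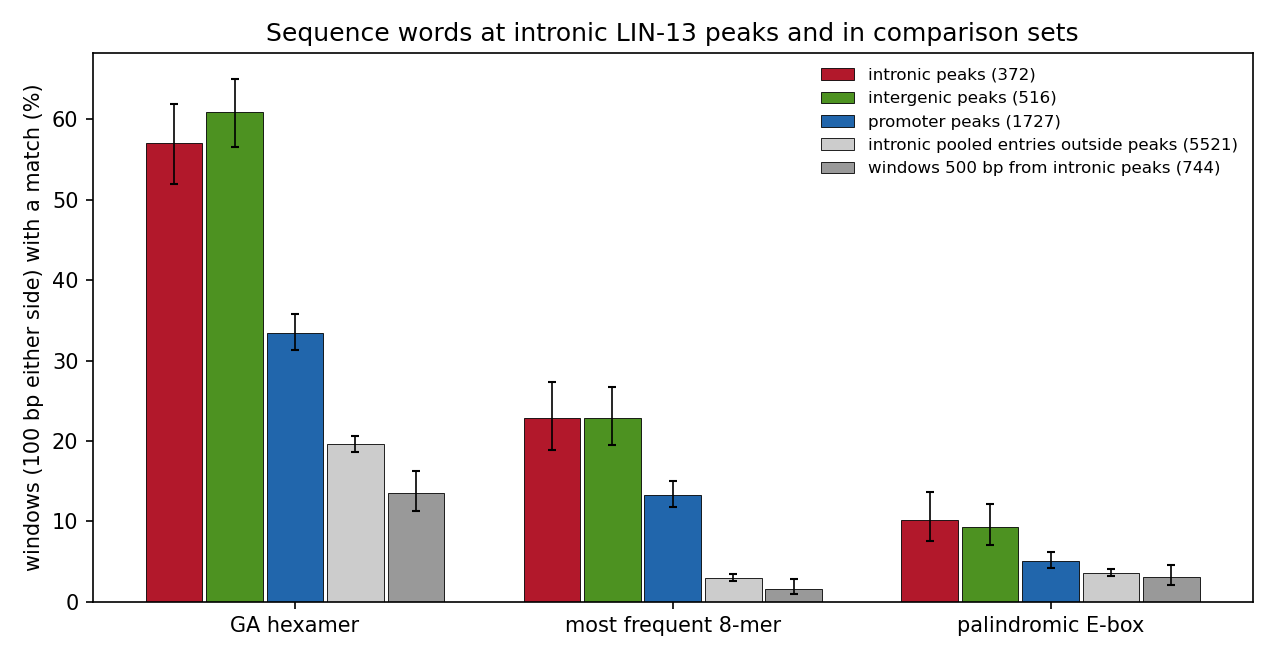
Share of windows, 100 bp to either side of their centre, with a match (y axis, %, bars from 0) in 5 sets of windows. The words are the GA hexamer, CTGCGTCT (labelled the most frequent 8-mer) and the palindromic E-box. Error bars are 95% Wilson intervals. For each word the intronic and intergenic bars lie close together, above the promoter bar and above both intronic comparison sets.

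The summits were also richer in G and C than the introns around them. Median GC content within 100 bp of the summit was 45.8% (44.8 to 46.3) at the intronic peaks, 36.3% (35.3 to 36.8) in their flanks and 34.8% in the intronic entries outside peaks. Promoter peaks had a median of 40.3% and intergenic peaks 44.8%. At 293 of 372 summits (78.8%) GC was above the mean of the peak's own flanks, with a median difference of 9.08 percentage points. GC content moved with the word counts, and its part in them was not tested, but shares within bands of equal GC can be given. Between 40 and 45% GC, GAGAGA was at 65.8% (54.6 to 75.5) of 76 intronic peaks, 19.4% of 134 flanks, 34.6% of 787 intronic entries outside peaks and 37.3% of 426 promoter peaks. At 50% GC and above it was at 70.8% of 96 intronic peaks, 25% of 36 flanks and 59.2% of 206 promoter peaks. Intronic entries outside peaks had it at 48.9% (40.8 to 57.1) there, and intergenic peaks at 71.8%. Between 45 and 50% GC it was at 66.0% of intronic and 78.3% of intergenic peaks. Intergenic peaks between 40 and 45% GC had it at 59.0%. Below 35% GC it was at 5 of 38 intronic peaks (13.2%, 5.75 to 27.3) and at 7.60% of 329 flanks, with overlapping intervals. Promoter peaks had it at 17.2% of 378 and intergenic peaks at 14.3% of 56 in that band, so the intronic share was above neither there. At 50% GC and above, CTGCGTCT was at 37.5% (28.5 to 47.5) of intronic peaks and 2.78% of flanks. Intronic entries outside peaks had it at 20.1% (14.3 to 27.6), promoter peaks at 23.8% and intergenic peaks at 32.0%. Below 35% GC its shares were 5.26% of intronic peaks, 0.304% of flanks, 0.705% of entries outside peaks and 6.08% of promoter peaks. It was at 0 of 56 intergenic peaks there.

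The deposited signal has no stated scale, so it was used only to rank entries within each list, with rank 1 the strongest. Intronic peaks lay low in the list. Their median pooled rank was 1922 (1785 to 2058), compared with 1320 (1252 to 1399) for promoter peaks and 1799.5 (1698 to 1908) for intergenic peaks. The strongest was at rank 30 and the weakest at 3040. Among nuclear peaks of ranks 1 to 500 they made up 6.07%, and among ranks 2001 to 2500 they made up 18.6%. Both words had higher shares among the stronger peaks. Of the 124 strongest intronic peaks, 36.3% (28.4 to 45.05) had CTGCGTCT and 63.7% had GAGAGA, and of the 124 weakest 16.1% (10.7 to 23.6) and 49.2% did. Median GC was 48.8% in the former and 44.3% in the latter.

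Replicate overlap was read from the 3040 strongest of 30000 entries in each replicate list, with an overlap of at least 1 bp. Of the intronic peaks, 287 (77.2%) overlapped these entries in replicate 1 and 314 (84.4%) in replicate 2. Both replicates gave 238 of 372, or 63.98% (59.0 to 68.7), against 72.2% of all nuclear peaks, with 77.1% at promoter peaks and 65.9% at intergenic peaks. These replicates also went into the thresholding, so this overlap is not an independent check. Another 49 were met in replicate 1 alone, 76 in replicate 2 alone and 9 in neither. In 5 pairs, 10 peaks in all, neighbouring summits overlapped the same entry in each replicate, so those pairs do not count as separate replicate hits; mom-1, zfp-1, pqn-41, lin-42 and ubq-1 (polyubiquitin) hold them.

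Almost every intronic peak had some entry in each full replicate list, 372 in replicate 1 and 371 in replicate 2. The exception was in natc-2, at pooled rank 2317 and replicate 1 rank 1705. The widest gaps were in mak-1, at ranks 17011 and 1624 in replicates 1 and 2, and in pyc-1 (pyruvate carboxylase), at 1899 and 16305. Both had pooled ranks above 2900, near the end of the list. Over 371 intronic peaks the ranks in the replicates had a Spearman rho of 0.53, and over 1702 promoter peaks 0.76. These points share libraries, and the range of ranks differs between the sets.

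**Figure D3:**
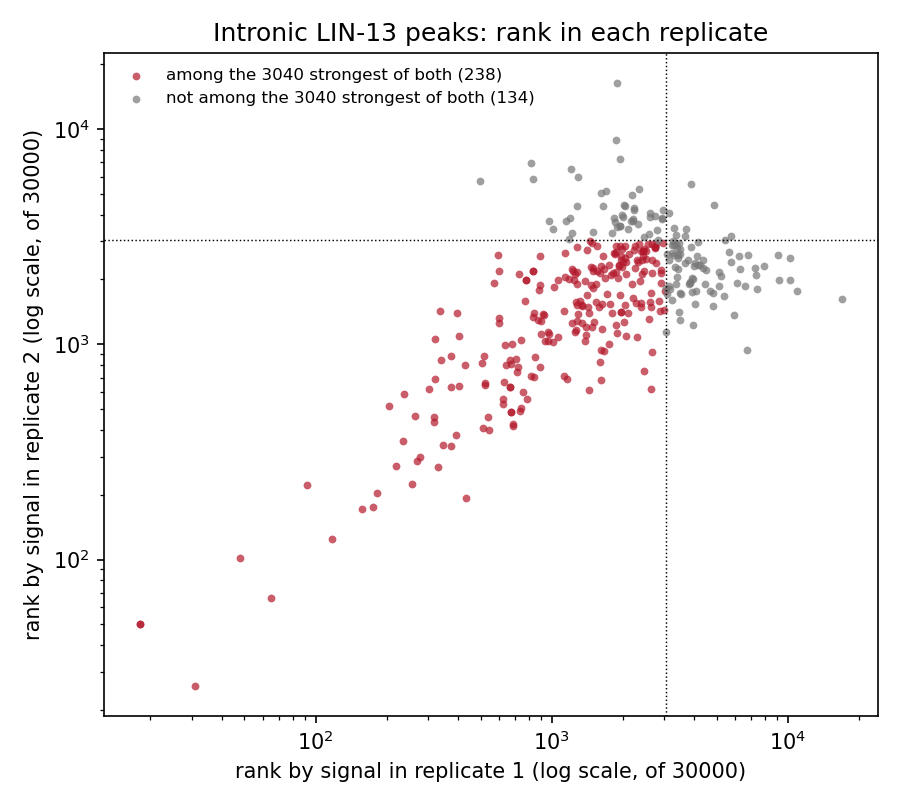
Rank by signal in replicate 1 (x axis) and replicate 2 (y axis), both on log scales, for 371 intronic peaks with an entry in each list; dotted lines mark rank 3040. The 238 red points lie among the strongest entries of both replicates, and the spread between replicates is wider among the weaker peaks.

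The intronic peaks lay mostly in long introns, and many lay in the first intron of a transcript. The shortest intron over the summit had a median length of 3070.5 bp (2455 to 3415), compared with 1541 bp (1448 to 1643) for intronic entries outside peaks. Introns over 2000 bp held 59.7% (54.6 to 64.5) of the peaks, 44.5% of those entries and 31.3% of the 17.2 Mb of eligible intron sequence. Introns under 500 bp held 10.2% of the peaks and 37.0% of the eligible bases. The first intron of at least 1 transcript held 234 peaks, or 62.9% (57.9 to 67.7), against 46.8% of the entries outside peaks and 34.6% of eligible bases. Counted only from the outermost start of the gene, the share was 44.9%, against 33.7% and 26.02%. Their distances from the gene start and the upstream exon were not shorter than those of the entries outside peaks. The median distance from the gene start was 3232.5 bp (range 203 to 32263 bp), compared with 2917 bp, and from the upstream exon 1260 bp, compared with 605 bp. The upstream side of the intron's midpoint held 45.97% of the peaks and 50.8% of those entries.

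Many of these peaks lay just upstream of a second, internal transcript start of their own gene. Internal starts were counted in every protein-coding gene, host or not, at least 200 bp downstream of its outermost start. Their promoter windows held 131 peaks, or 35.2% (30.5 to 40.2), against 17.3% of the intronic entries outside peaks and 11.8% of eligible bases. With a narrower window, from 500 bp upstream to 100 bp downstream, they were 22.3%, 10.4% and 6.70%. Of the 131, 125 had the nearest internal start of the host gene downstream of the summit, and the median distance to it was 303 bp. The 250 bp just upstream of the nearest internal start held 50 peaks (13.4%), and the 250 bp just downstream held 4 (1.08%). The rule left out exons, which begin at each start, so the gap downstream is partly fixed by it; the entries outside peaks gave 5.31% and 1.45%. Host genes with any internal start held 82.8% of the peaks and 64.7% of those entries.

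Peaks at internal starts had a median pooled rank of 2023, compared with 1880 for the other intronic peaks. They had GAGAGA at 53.4% (44.9 to 61.8), compared with 58.9% (52.6 to 64.9) of the other intronic peaks, with overlapping intervals. Examples among the strongest were scc-2 (a cohesin loader), with the summit 168 bp upstream of an internal start, rme-4 (an endocytosis factor) at 82 bp, and Y43F8B.2 at 55 bp. In lin-39, the midbody Hox gene, the summit lay 44 bp upstream of one.

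**Figure D4:**
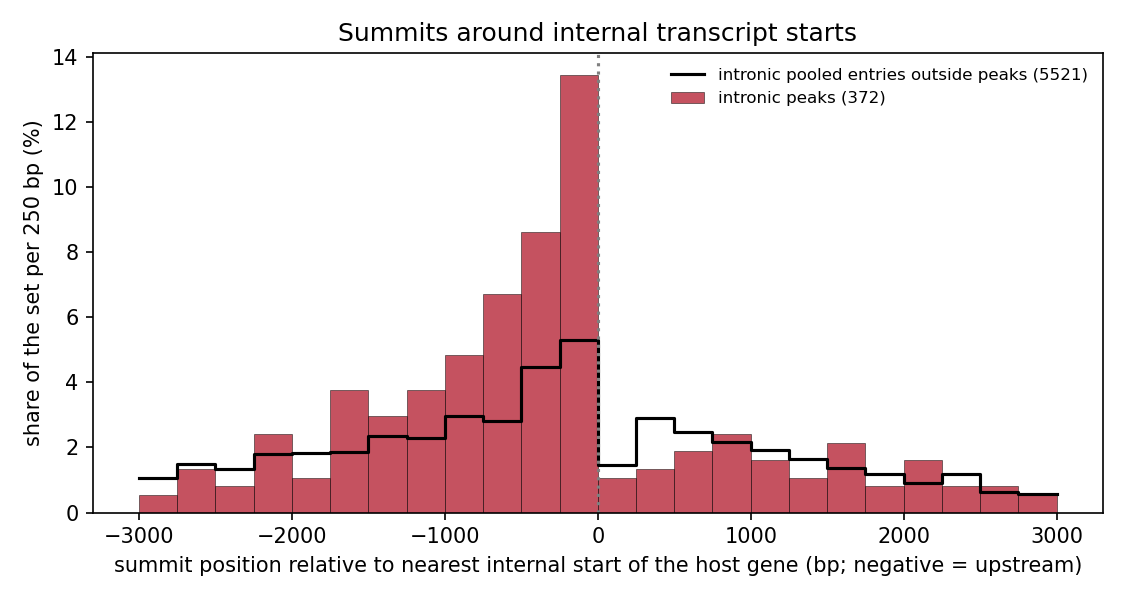
Summit position relative to the nearest internal transcript start of the host gene (x axis, bp, negative values upstream) as a share of each set per 250 bp (y axis, %), for 372 intronic peaks (bars) and 5521 intronic pooled entries outside peaks (line). The tallest bar, 13.4%, is the bin just upstream of the start, where the line is at 5.31%.

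The strongest peaks lay in genes of many kinds. In Y41G9A.17 (chrX:2996826-2997385) the peak ranked 30 in the pooled list, 31 in replicate 1 and 26 in replicate 2. In mom-1, which encodes the Porcupine-type acyltransferase needed for Wnt secretion, it ranked 39, 18 and 50 (chrX:6296289-6296823). In Y111B2A.12 it ranked 68, 65 and 66 (chrIII:12612496-12612806). These ranks differed little between the replicates. In scc-2 it ranked 83, 48 and 102, in the first of 26 introns and 8299 bp from the gene start. The peak in zfp-1, the homologue of the chromatin protein AF10, ranked 152, 92 and 222, a wider spread. The peak in unc-108, which encodes the RAB-2 GTPase, ranked 158, 157 and 171.

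The other 14 of the 20 strongest were at pooled ranks from 124 to 352. In Y46G5A.34, W06H8.6, T28F4.1, F09A5.3 and rme-4 they ranked 124, 180, 235, 237 and 264, with pqn-41 between W06H8.6 and T28F4.1. In epg-9, mdt-26, F53C11.5 and Y43F8B.2 they ranked 276, 285, 289 and 300. The last 4 were in ppfr-1 (a regulatory subunit of protein phosphatase PP4) at 304, nurf-1 (a nucleosome remodelling factor subunit) at 324, pbrm-1 (a polybromo subunit of the SWI/SNF complex) at 333, and T02E1.2 at 352. The widest replicate gap among these was in mdt-26, at ranks 204 and 519. All 20 were among the strongest entries of both replicates, 12 lay in a first intron, 8 in an internal start window, and 11 had GAGAGA.

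The 372 peaks lay in 288 genes, which are 1.44% of 19973 protein-coding genes. Of these, 230 genes held 1 peak, 58 held at least 2, and 4 peaks had more than 1 host gene. The largest numbers were in zfp-1 and ppfr-1, with 6 each. The zfp-1 peaks ranked 152, 519, 552, 673, 1103 and 2073, and each had GAGAGA, while the peaks at 552 and 2073 shared a replicate entry. The ppfr-1 peaks ranked 304, 587, 1045, 1280, 1403 and 2608, and 2 of them had GAGAGA. The equal counts thus came with different sequence.

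Another 6 genes held 4 or 5. The 5 peaks in hlh-30, which encodes the TFEB homologue that drives autophagy and lysosome genes, were all weak, at ranks from 2227 to 2931, and 4 had GAGAGA. The 5 in pqn-41 ranked 527, 597, 938 and 1738 besides the one among the 20 strongest, and those at 527 and 1738 shared a replicate entry. The 4 in aakg-1 ranked from 862 to 2371 and all had GAGAGA. In daf-5, which encodes the SNO/SKI protein of the dauer TGF-beta pathway, 4 peaks ranked from 659 to 2927. In let-526, a SWI/SNF subunit of the ARID family, 4 ranked from 683 to 2651, and in ncl-1, a TRIM-NHL repressor of nucleolar size, 4 ranked from 1005 to 2745. These genes were long, from 14771 bp (zfp-1) to 36738 bp (aakg-1), and held from 5643 to 14735 bp of eligible intron.

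**Figure D5:**
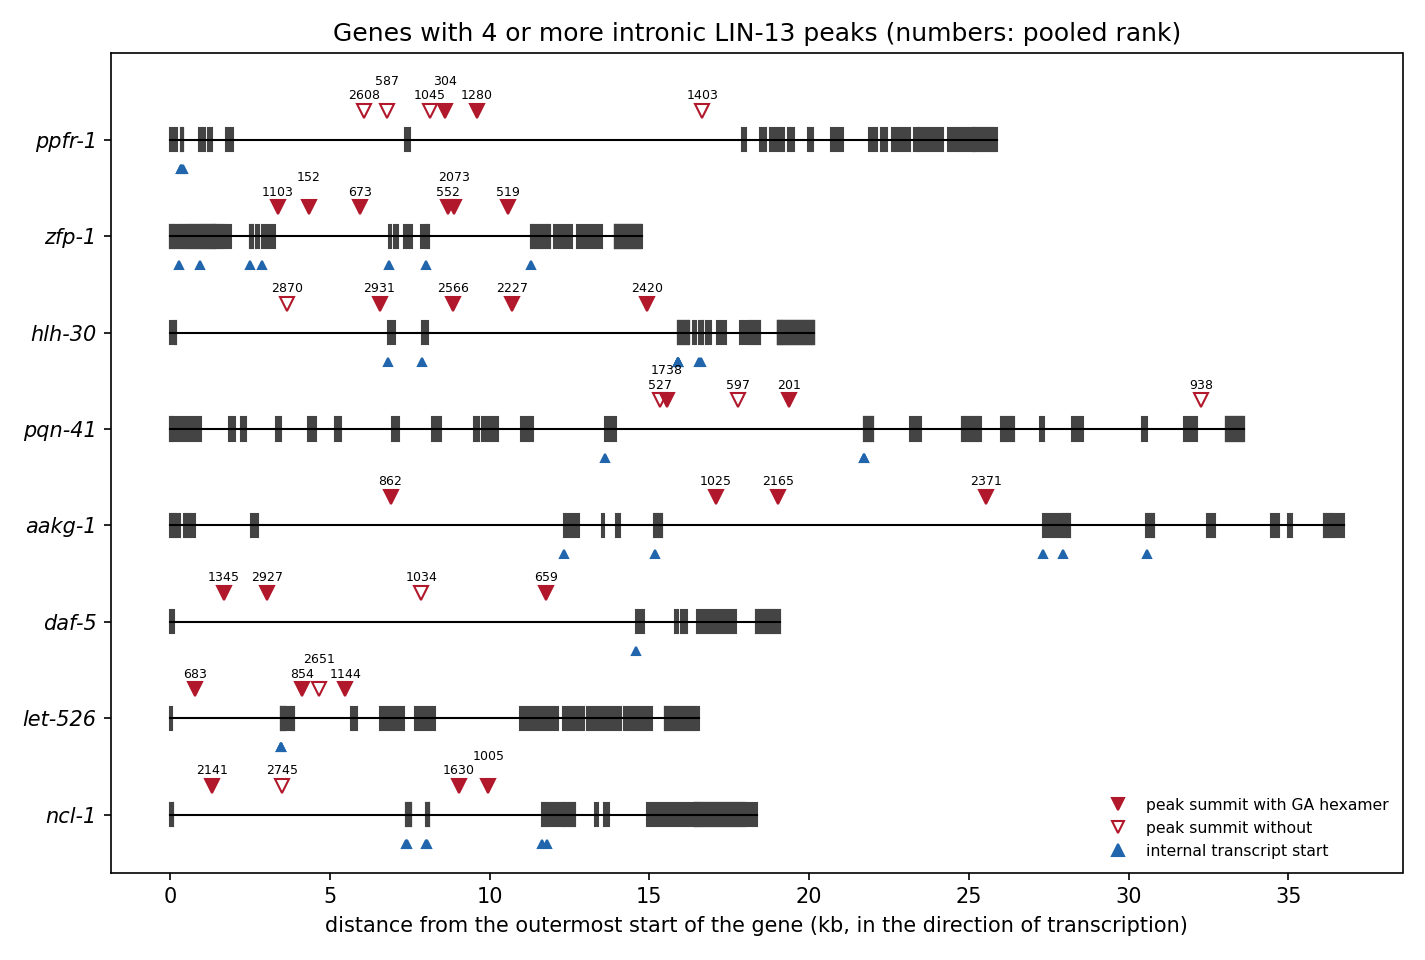
Maps of the 8 genes with at least 4 intronic peaks, drawn to scale from the outermost start (x axis, kb); boxes are protein-coding exons, triangles above the line are summits with their pooled rank (filled with a GA hexamer within 100 bp, open without), and triangles below are internal transcript starts. All 6 summits in zfp-1 and all 4 in aakg-1 are filled, while 4 of 6 in ppfr-1 are open.

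Some host genes also had a peak in their own promoter window. Of the 288, 64 did, or 22.2% (17.8 to 27.4), against 11.6% of all protein-coding genes and 10.6% (10.2 to 11.1) of genes with eligible intron and no intronic peak. Long genes can hold more intronic peaks, so genes were also set side by side by the length of their eligible intron. Between 2000 and 5000 bp the shares were 19.8% (12.7 to 29.4) of 86 hosts and 9.30% of 1419 other genes. From 10000 bp they were 5 of 32 hosts and 4 of 130 other genes, where the intervals overlapped (6.86 to 31.8% and 1.20 to 7.64%).

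By gene list, heterochronic genes, which set the timing of larval cell fates, had the most intronic peaks per length of intron among the lists with at least 2 peaks. They held 10 peaks in 6 of 18 genes, 124 per Mb of eligible intron, against 21.6 per Mb over all genes. The pooled entries outside peaks were also denser there, at 585 per Mb against 320. In kin-20 (the casein kinase homologous to Doubletime) peaks ranked 370 and 786, in daf-12 (the dauer steroid receptor) 1209, and in sea-2 1535. In lin-42, the Period homologue, they ranked 1217, 2080 and 2563. In lin-14, the target of the lin-4 microRNA, they ranked 1767 and 2098, and in alg-2 (an Argonaute of the microRNA pathway) 2113. The 1217 and 2563 peaks in lin-42 overlapped the same replicate entries and are not separate there.

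The listed transcription factors outside the homeobox and nuclear receptor families held 17 peaks in 11 of 133 genes (62.9 per Mb). The strongest of these were in daf-16, the FOXO factor of insulin signalling, at rank 586, and in mef-2 at 605. The next was in skn-1, the Nrf homologue, at 1059, and 5 of the 17 lay in hlh-30. The list is partial, and lag-1, with a peak at rank 801, is not in it. Nuclear hormone receptors held 11 peaks in 7 of 274 genes (34.0 per Mb), the strongest in nhr-19 at 486, nhr-3 at 804 and nhr-46 at 968. The daf-12 peak is counted in this list as well as in the heterochronic one. The homeobox list of 95 genes held 2 (10.8 per Mb), in lin-39 at 1151 and egl-44 at 2238. The latter encodes a TEA-domain factor and not a homeodomain protein, so lin-39 is the 1 homeobox gene with a peak in that list.

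The lists of differentiated tissues differed from each other. The 55 listed synapse and ion channel genes held 2 peaks, both in unc-43 (the CaM kinase II gene), in 0.328 Mb (6.09 per Mb), and the axon guidance and adhesion list held 1, in sax-7, in 0.275 Mb (3.64 per Mb). Entries outside peaks were at 402 and 378 per Mb in those lists, above the 320 per Mb of all genes. The muscle list held 2 (act-4 and lev-11, 19.3 per Mb) and the epidermal list 2 (vab-10 and spc-1, 23.8 per Mb), close to the density over all genes. The Wnt pathway list held 2, both in lit-1, the Nemo-like kinase (35.6 per Mb). The ribosomal protein list held 1 (rpl-19), which is 302 per Mb in only 0.00331 Mb of eligible intron. The lists are partial: mom-1 is not in the Wnt list, and the channel gene trpa-1 and the synaptic genes rab-3, rbf-1 and snt-4, each with 1 intronic peak, are not in the synapse list. Intestinal genes, with 0.0253 Mb of eligible intron, and synMuv B and heterochromatin genes, with 0.00875 Mb, held 0; at the density over all genes such lengths correspond to under 1 peak each. The synMuv B list includes lin-13 itself. One intronic peak lay in unc-119 (chrIII:10905203-10905552) at ranks 2255, 1970 and 2461, and copies on the transgene cannot be told apart from the genomic gene in these lists.

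Several of the host introns also hold microRNA genes. Within 500 bp of a microRNA gene lay 10 intronic peaks, or 2.69% (1.47 to 4.88), against 0.362% (0.235 to 0.559) of the intronic entries outside peaks and 0.269% of eligible bases. In 9 of the 10 the summit was upstream of the nearest microRNA gene. The strongest, in F09A5.3 at ranks 237, 220 and 272, lay 322 bp upstream of mir-54, on the strand opposite to the host. The peak in nurf-1 lay 136 bp upstream of mir-5595, that in K01F9.2 (rank 740) 317 bp upstream of mir-90, and that in gcn-1 (rank 1040) 300 bp upstream of mir-229. In ppfr-1, peaks at 1280 and 1403 lay 367 bp upstream of mir-71, which is known for extending lifespan, and 454 bp upstream of mir-2. The former was at rank 496 in replicate 1 and 5725 in replicate 2, so it was not among the strongest of both.

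Weaker peaks lay 336 bp upstream of mir-58a, an abundant microRNA of the bantam family (rank 2341, in Y67D8A.2), 436 bp upstream of the neuronal mir-124 (rank 2716, in trpa-1) and 294 bp upstream of mir-4929 (rank 2123, in E01G4.3). A second peak in F09A5.3 (rank 2935) lay downstream of mir-54, mir-55 and mir-56, 107 bp beyond the last, and 246 bp upstream of mir-55b on the other strand. Of other classes, unclassified ncRNA genes were within 500 bp of 67 peaks (18.01%) against 11.05% of the entries outside peaks, and piRNA genes of 8 (2.15%) against 5.05%. Long intergenic RNA genes were within 500 bp of 4, of which 2 lay inside linc-143 in an intron of daf-2, the insulin receptor gene.

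Intronic peaks differed in density between the chromosomes, and their shares are given beside those of all nuclear peaks. Chromosome III held 90 (24.2%, 20.1 to 28.8), or 40.3 per Mb of eligible intron, and 20.1% of all nuclear peaks lay there. Chromosome V held 42 (11.3%, 8.46 to 14.9), or 13.2 per Mb, and 13.9% of all nuclear peaks. Entries outside peaks differed less, at 379 and 264 per Mb. The X chromosome held 64, or 17.2% (13.7 to 21.4), against 16.6% of all nuclear peaks and 22.5% of eligible bases. GAGAGA was at 40.6% (29.5 to 52.9) of the X peaks and at 60.4% (54.8 to 65.7) of the autosomal ones. The strongest on each chromosome lay in unc-108 (I), scc-2 (II), Y111B2A.12 (III), epg-9 (IV), W06H8.6 (V, rank 180) and Y41G9A.17 (X).

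Some peaks lay close to a limit of the rule. For masking, aakg-1 (49.8%) and hrde-4 (49.3%) were just inside, and summits in hgap-2 and pqn-41 (51.2% each) just outside, the latter at rank 232. For distance to a tRNA, snoRNA or snRNA gene, T22F3.2 (509 bp) and tps-2/F19H8.2 (587 bp) were inside, and egl-27 (353 bp) and zip-2 (254 bp) outside. For the promoter window, mak-1 lay 4 bp and zip-4 23 bp beyond its edge, while wht-3 lay 5 bp and hrpk-1 9 bp within it.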

How the data were processed

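The lists of 2 replicates and of their pool, 30000 entries each, and the thresholded ce11 list were used; the ce10 lists were not used here. Per the listings the authors deposited, entries were called relative to a control and thresholded by irreproducible discovery rate (IDR). The sources used here do not name the aligner, caller or threshold. The deposited signal has no stated scale and was used only for ranks. The deposited −log10 q-values, 2.73 to 2.99 at the intronic peaks, were not used to select. The files hold no read counts, so depth is unknown.

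Gene models were Ensembl release 115 and sequence and masking came from the WBcel235 reference. Python 3.11.15 with numpy 2.4.6, scipy 1.17.1 and matplotlib 3.10.9 was used. Coordinates are 1-based. Location code was checked at random genome positions against a direct interval search, and motif code on simulated sequences. Sets were compared as shares and medians without a test. Named genes were the hosts of the 20 strongest peaks, genes with at least 4, the strongest on each chromosome, up to 3 strongest peaks per gene list and those nearest each limit; other named peaks (all heterochronic hosts, microRNA neighbours, replicate gaps, unc-119, ubq-1, daf-2) were chosen after their values were seen. Alternatives covered the promoter window, masking, exons, list strength, summits, overlap, motif window and single replicates. The peaks and lists were chosen with earlier results of these data known.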

Additional observations from a re-analysis of the deposited data

How the results depend on the processing

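No paired analysis was possible because the design has 1 group. Of 107 values under alternatives, 91 stayed within their interval, or within 1.5 times for the number of peaks, and 16 moved. None was tested. Keeping 1 summit per interval changed no value, since 0 intervals held more than 1 intronic summit, and its values are counted in the 91. Peaks taken from a single replicate are among its strongest entries by construction, so their share in both replicates is overlap with the other alone. Taking the 3040 strongest entries of a single replicate, matched by number and with 33 (replicate 1) and 39 (replicate 2) summits at the identical base, gave 389 to 398 intronic peaks, 62.2 to 63.6% in both replicates, first-intron shares of 60.4 to 61.1%, internal-start shares of 29.6 to 30.6%, host promoter shares of 21.9 to 22.2%, X shares of 17.0 to 19.6%, median GC of 44.3 to 45.3%, GAGAGA at 52.5 to 54.2%, CTGCGTCT at 18.8 to 20.6% and CACGTG at 10.1 to 10.3%. In the stronger part of the thresholded list, split at its midpoint, there were 132 peaks, at a median rank of 830, with 99.2% in both replicates. Host promoter peaks were at 16.1%, median GC was 48.8%, GAGAGA was at 62.9% and CTGCGTCT at 35.6%. The cut lowers the number of peaks and their median rank number by construction. Pooled ranks come from the same replicates, so the 99.2% is not separate from the cut. The cause of the other shifts was not tested. Under 25% masked bases median GC was 47.3% (the cause was not tested). By construction, smaller windows held fewer matches: GAGAGA was at 37.9% within 50 bp of the summit and 62.6% within 150 bp, CTGCGTCT at 16.4% and CACGTG at 5.65% (3.72 to 8.48) within 50 bp, the last overlapping the 4.44% (3.18 to 6.16) of full-length windows 1000 bp away, and internal starts at 22.3% with 500 bp upstream to 100 bp downstream. The CTGCGTCT shares, the GAGAGA and CACGTG shares under location settings and the median rank were added after seeing the data. Depth limits cannot be given, since no counts are in the files.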
